A study of Danio rerio with 9 samples.

Results

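The cytochrome P450 (cyp) and hydroxysteroid dehydrogenase (hsd) genes were followed in zebrafish embryos given extra mRNA for 1 of 2 hypoxia-inducible factor alpha subunits. A gene belonged to the set if the reference symbol of its array probe began with cyp or hsd followed by a number. The choice therefore rested on names and on no measured value. The reference table held 104 such symbols, and 79 of them had a probe, 65 cyp and 14 hsd genes. Of the 79, 59 gave enough signal to be tested, 45 cyp and 14 hsd genes, among 19549 genes or transcripts tested in all.

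Whole embryos of the Tuebingen strain had received an injection of GFP mRNA (the control), of Hif-1α mRNA or of Hif-3α mRNA, and were sampled at 12 h post fertilization. Each group had 3 arrays, and each array measured the RNA of a pool of 60 embryos. The replicates came from 3 independent injection experiments. Every group received an mRNA, so no uninjected embryos enter any comparison, and an injected mRNA is not restricted to a cell type by a promoter.

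Cytochromes P450 are haem enzymes that insert oxygen into lipids, steroids, retinoids and foreign chemicals, drawing electrons from a reductase or, in mitochondria, from a ferredoxin. Hydroxysteroid dehydrogenases interconvert hydroxyl and keto groups on steroids, and several act mainly on fatty acids. In early embryos the best known members are the Cyp26 enzymes, which clear retinoic acid and so shape its gradient along the axis, and Cyp11a1, which makes pregnenolone from cholesterol.

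Levels below are log2 signals relative to the 75th percentile of the same array, so a level of 0 equals that percentile. They compare arrays for 1 probe and carry no order between probes. Differences are given with the standard error (SE) of limma's moderated fit, with 3 arrays in each group (n = 3). Their p-values are corrected across all 19549 genes or transcripts. A gene is said to rise or fall when its adjusted p is under 0.05. Arrays had 68.3% to 75.3% of their probes well above background, and pairs of arrays correlated at 0.963 to 0.988 across probes. That percentile was a signal of 766 to 822 in controls, 500 to 611 with Hif-1α and 609 to 785 with Hif-3α. Hif-3α replicate 1 carried 437 spots flagged as outliers against 3 to 24 on the other arrays. Probes of hif1al, the symbol under which the table lists Hif-3α, checked the labels: 3 of its 4 probes were 5.85 to 8.49 log2 units higher in Hif-3α embryos than in controls, and the other differed by -0.02. The injected Hif-1α transcript was not checked here.

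In Hif-1α embryos 8 of the 59 tested members rose and 0 fell against GFP controls. Over all genes tested, 9.50% passed in this comparison, 5.73% higher (1120 genes) and 3.77% lower (737). The members' share of 13.6% higher stood above the background share and their share lower was below it. The members' share counts 3 cyp46a1 copies that cannot be taken as separate observations, as described below, and it was given no test. The split of all genes turned to 879 higher and 1363 lower when arrays were centred on their median, with 7 members higher and 0 lower. The members that rose were 3 cholesterol 24-hydroxylase genes of the cyp46a1 group, hsd3b7, hsd17b12a, hsd17b14, cyp2y3 and cyp3c3. In Hif-3α embryos 0 of 59 members passed against controls, where the background share was 0.00512%, and between the 2 injected factors cyp1b1 and cyp3c3 were lower with Hif-3α.

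**Figure D1:**
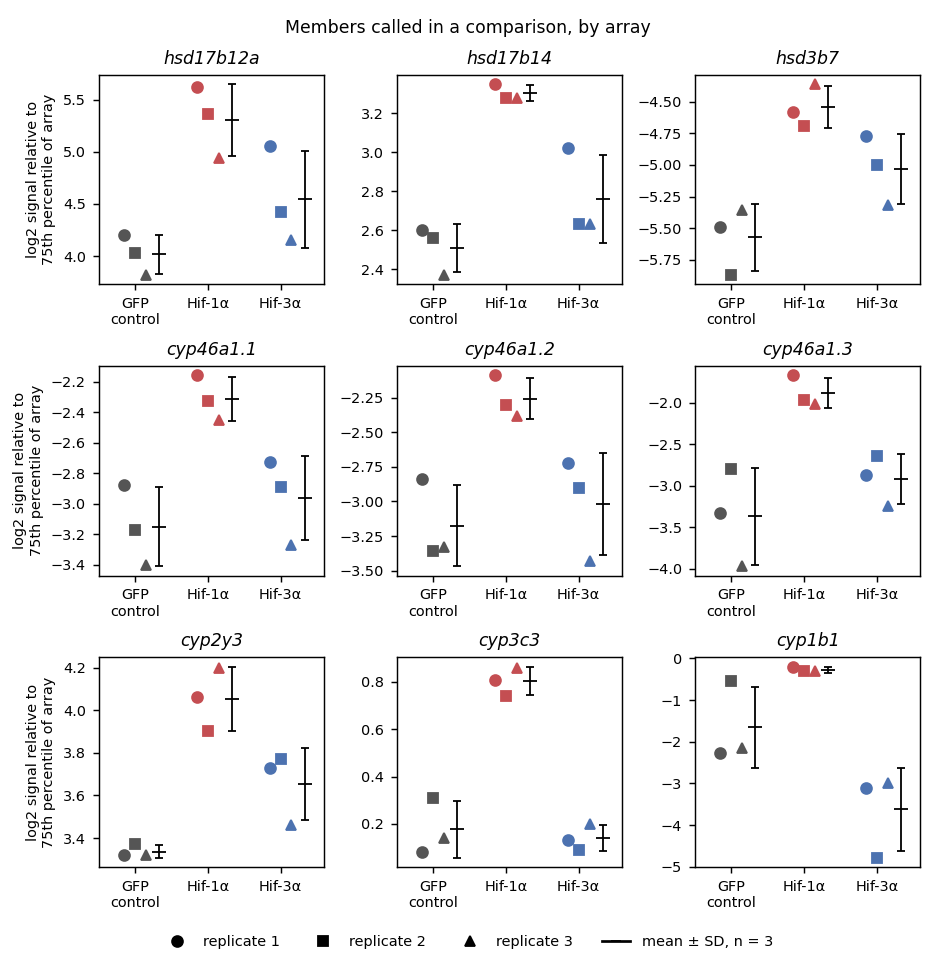
Levels (log2 signal relative to the 75th percentile of the array) of the 9 members that passed in any comparison, for each array; point shapes are the replicates and bars are the mean ± SD of 3 arrays. In every panel the Hif-1α arrays lie above the control arrays, for cyp1b1 by a narrow gap to 1 control array, and in cyp1b1 the 3 Hif-3α arrays lie below all other arrays.

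The oxysterol and bile acid group held the largest share of rising members. It had 12 genes with a probe and 6 that were tested. Of the 6, 4 rose in Hif-1α embryos and 0 fell, beside 5.73% and 3.77% of all genes. The median difference was 0.88, and across all genes tested it was -0.01. All of the 4 but hsd3b7 were cyp46a1 copies, which cannot be counted as separate observations, as described below. In mammals CYP46A1 turns cholesterol into 24-hydroxycholesterol, mainly in brain, and zebrafish have several copies. The copy cyp46a1.3 read -3.33, -2.80 and -3.97 in controls, -1.67, -1.96 and -2.01 with Hif-1α and -2.87, -2.64 and -3.24 with Hif-3α. All Hif-1α arrays were above all others, while Hif-3α and control arrays overlapped. It was 1.48 ± 0.29 higher with Hif-1α than in controls, 2.79-fold (adjusted p = 0.0220).

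The copy cyp46a1.1 read -2.88, -3.17 and -3.40 in controls, -2.16, -2.33 and -2.45 with Hif-1α and -2.73, -2.89 and -3.27 with Hif-3α. It rose by 0.84 ± 0.19 with Hif-1α (adjusted p = 0.0328). The copy cyp46a1.2 read -2.84, -3.36 and -3.33 in controls, -2.09, -2.30 and -2.38 with Hif-1α and -2.72, -2.90 and -3.43 with Hif-3α, and rose by 0.92 ± 0.22 (adjusted p = 0.0396). In both genes the Hif-1α arrays were the 3 highest of the 9, and the other groups overlapped. Each of these copies rested on 1 kept probe, and the readings of cyp46a1.1 and cyp46a1.2 nearly coincided on every array. Whether their probes bind both transcripts was not tested, so the copies cannot be counted as separate observations.

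Another copy, cyp46a1.4, lies between cyp46a1.2 and cyp46a1.3 in the gene order of the reference assembly. Its readings were -5.26, -5.23 and -4.70 in controls and -4.91, -5.78 and -4.39 with Hif-1α, overlapping throughout, with a difference of 0.04 ± 0.38. The 95% interval, -0.83 to 0.91, includes the size seen for cyp46a1.1. The fifth copy, cyp46a1.5, is the neighbour of cyp46a1.1; its brightest probe was well above background on 1 array of 9, in the Hif-1α group, and it was not tested.

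The other riser of the group was hsd3b7, whose mammalian counterpart oxidises the ring hydroxyl of sterols early in bile acid synthesis. Its signal was low, at -5.49, -5.87 and -5.36 in controls, -4.58, -4.69 and -4.36 with Hif-1α and -4.77, -5.00 and -5.32 with Hif-3α. The 3 groups did not overlap at all, with Hif-3α between the others. The Hif-1α difference was 1.03 ± 0.19 (adjusted p = 0.0192), and the Hif-3α difference of 0.54 ± 0.19 did not pass (adjusted p = 0.694). With normexp background correction in place of the processed signal, the Hif-1α difference of hsd3b7 was -0.19 ± 0.83 (adjusted p = 0.948). That correction added an offset of 50 to every corrected signal. An added offset reduces log2 differences of dim probes, and its part here was not tested. Under that correction the median Hif-1α difference of all genes was -0.2, against -0.01 with the processed signal. The same setting left cyp46a1.1 at 0.03 ± 0.56, cyp46a1.2 at 0.06 ± 0.63 and cyp46a1.3 at 0.33 ± 0.6. With it 0 members passed, where 0.0256% of all genes did. The gene cyp7a1, the rate-limiting enzyme of bile acid synthesis, differed by 0.19 ± 0.25 with Hif-1α (adjusted p = 0.651; interval -0.38 to 0.76). The 3 cyp8b1 genes and cyp39a1 were well above background on 0 arrays by their brightest probe.

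Among the hsd genes that act on fatty acids, hsd17b12a rose. Its human counterpart is the ketoacyl-CoA reductase of very long chain fatty acid elongation. The arrays gave 4.20, 4.03 and 3.82 in controls, 5.62, 5.36 and 4.94 with Hif-1α and 5.06, 4.42 and 4.15 with Hif-3α. Every Hif-1α array lay above every control array, and Hif-3α overlapped both. The difference was 1.29 ± 0.26 (2.45-fold, adjusted p = 0.0243) with Hif-1α. A second probe of the gene gave 1.49 ± 0.35 and also passed when all kept probes were tested (adjusted p = 0.0397 over all probes, of which 8.49% passed). With Hif-3α the brightest probe differed by 0.52 ± 0.26 (adjusted p = 0.842).

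Its paralogue hsd17b12b did not follow. It read -0.27, -0.57 and -0.57 in controls, -0.34, -0.30 and -1.07 with Hif-1α and -0.08, -0.24 and -0.71 with Hif-3α, all overlapping. The Hif-1α difference was -0.10 ± 0.25 (interval -0.67 to 0.46; adjusted p = 0.818), and its other probes gave -0.59 ± 0.18 and -0.61 ± 0.20, which did not pass over all probes (adjusted p = 0.0775 and 0.0904). No test was made of the difference between the paralogues, although their 95% intervals, 0.70 to 1.89 for hsd17b12a and -0.67 to 0.46, do not overlap.

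Peroxisomal hsd17b4, a bifunctional enzyme of fatty acid beta-oxidation, was the member whose Hif-1α arrays all lay below the controls. It read -0.13, -0.14 and 0.40 in controls, -0.68, -0.42 and -0.49 with Hif-1α and -0.77, -0.13 and -0.22 with Hif-3α. The difference of -0.57 ± 0.22 did not pass (adjusted p = 0.127). Its dimmer probe gave -0.97 ± 0.22 and passed over all probes (adjusted p = 0.0324), and the mean of both probes gave -0.77 (adjusted p = 0.0408), so its call turns on the probe. The mitochondrial dehydrogenase hsd17b10 and hsd17b8, known from mammals for mitochondrial fatty acid synthesis, did not pass.

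The short-chain dehydrogenase hsd17b14, whose human counterpart oxidises oestradiol in vitro, read 2.6, 2.56 and 2.37 in controls and 3.35, 3.28 and 3.28 with Hif-1α. With Hif-3α it read 3.02, 2.63 and 2.63, so the 3 groups did not overlap and Hif-3α again lay between. It rose by 0.79 ± 0.14 with Hif-1α (adjusted p = 0.0172), and its second probe gave 1.15 ± 0.23 (adjusted p = 0.0245 over all probes). The Hif-3α difference from control was 0.25 ± 0.14 (adjusted p = 0.855).

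Families 2 and 3 hold many enzymes that oxidise foreign compounds and fatty acids, and most are known only as fish genes. Of 24 tested, 2 rose with Hif-1α and 0 fell, where 5.73% of all genes rose and 3.77% fell. In 19 of 24 the difference was above 0, against 49.0% of all genes, with a median of 0.20 and a range of -0.52 to 1.38, the upper end being cyp3c4, which was kept only through the Hif-1α group. The gene cyp2y3 read 3.32, 3.37 and 3.32 in controls, 4.06, 3.90 and 4.20 with Hif-1α and 3.73, 3.77 and 3.46 with Hif-3α. Its control arrays nearly coincided, and the groups did not overlap, in the order control, Hif-3α, Hif-1α. It rose by 0.72 ± 0.13 with Hif-1α (adjusted p = 0.0186), with 0.62 ± 0.15 from its second probe (adjusted p = 0.0405 over all probes). The Hif-3α difference was 0.32 ± 0.13 (adjusted p = 0.805).

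The gene cyp3c3 read 0.08, 0.31 and 0.14 in controls, 0.81, 0.74 and 0.86 with Hif-1α and 0.13, 0.09 and 0.20 with Hif-3α. On this probe, the brightest of 3, the Hif-1α arrays stood apart and the Hif-3α arrays fell among the controls. The Hif-1α difference was 0.63 ± 0.11 (adjusted p = 0.0174) and the Hif-3α difference was -0.03 ± 0.11 (interval -0.29 to 0.22; adjusted p = 0.985). Its other probes gave 0.67 ± 0.21 and 0.30 ± 0.24 with Hif-1α. Neither passed over all probes (adjusted p = 0.0852 and 0.448), so the call turns on the probe. The neighbouring cyp3c1 differed by 0.50 ± 0.22 with Hif-1α (adjusted p = 0.172). Another neighbour, cyp3c4, named after its values were seen, was 1.38 ± 0.71 higher, but a single Hif-1α array at -3.0 stood above the other 2 at -5.61 and -5.60. That gene was well above background on 2 control arrays, all 3 Hif-1α arrays and 1 Hif-3α array.

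**Figure D2:**
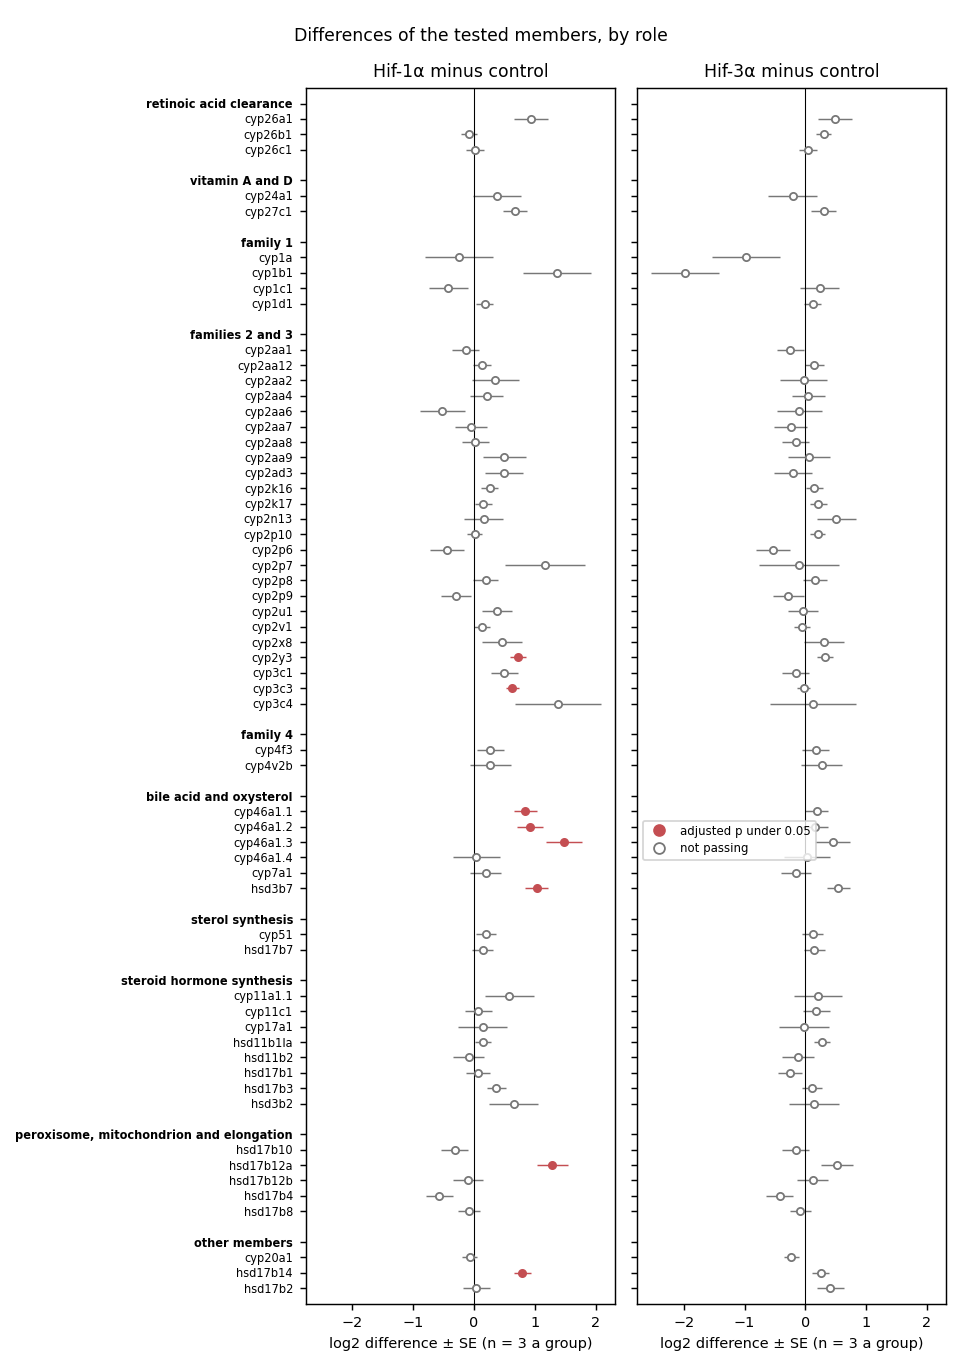
Differences from control (log2, ± SE, n = 3 arrays a group) of all 59 tested members, grouped by role, for Hif-1α on the left and Hif-3α on the right; filled points passed the test over all genes. The 8 filled points are all on the Hif-1α side, where 45 of 59 differences are above 0, and both panels share their control arrays.

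Over all 59 tested members the set leaned to higher values with Hif-1α. In 45 of 59 members (76.3%) the difference was above 0, against 49.0% of all genes tested, and the median was 0.19. The Hif-1α arrays lay wholly above the controls in 14 of 59 members, 23.7% against 17.2% of all genes, and wholly below in 1 of 59, hsd17b4, 1.69% against 16.8%. All 8 members that passed are counted in both the 45 and the 14, so these shares are not of members below the threshold. They describe the whole set and were given no test. Only 4 of the 59 (cyp2n13, cyp2u1, cyp3c4 and cyp46a1.4) were not detected on all 9 arrays. The 8 risers were all detected on all 9, so a filter asking for this could not remove them. Under that filter 8 of 55 members rose, beside 1071 of 17531 genes in all.

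The labels give replicate numbers alone, and arrays with the same number were taken to come from the same injection experiment. With the experiment in this sense as a block, 12 members rose and 1 fell, 22.0% of members. Of all genes 22.5% passed under the block, 2280 higher and 2123 lower. The block added cyp26a1 (adjusted p = 0.0343), cyp27c1 (0.0270), cyp3c1 (0.0328) and cyp11a1.1 (0.0321) to the risers. The member that fell under the block was cyp2aa6, a family 2 gene at -0.52, with a blocked adjusted p of 0.026.

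Scan day moved with the groups. Control replicate 1 was scanned on day 1, Hif-3α replicate 1 on day 2 and Hif-1α replicates 1 and 3 on day 4, while day 3 held the other 5 arrays from all groups. With scan day as a block 0 members passed, where 0.0205% of all genes did. Day 3 alone held 1 Hif-1α array against 2 controls. All 8 differences were positive there. Their sign was fixed in advance, since in all 8 members every Hif-1α array lay above every control array. Within day 3 they were 1.44 for hsd17b12a, 1.42 for cyp46a1.3, 1.05 for cyp46a1.2, 0.95 for cyp46a1.1, 0.92 for hsd3b7, 0.81 for hsd17b14, 0.55 for cyp2y3 and 0.51 for cyp3c3. Adjusted p-values within day 3 ran from 0.233 for hsd17b12a to 0.45 for cyp2y3. The count of 8 also rested on single arrays, as did the share of all genes that passed, 9.50% with all 9 arrays. Without control replicate 1, 2 members passed (2.7% of all genes), and without control replicate 3, 1 did (1.91%). Without Hif-1α replicates 1, 2 and 3 in turn, 0, 4 and 1 members passed, beside 2.02%, 5.01% and 2.57% of all genes.

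**Figure D3:**
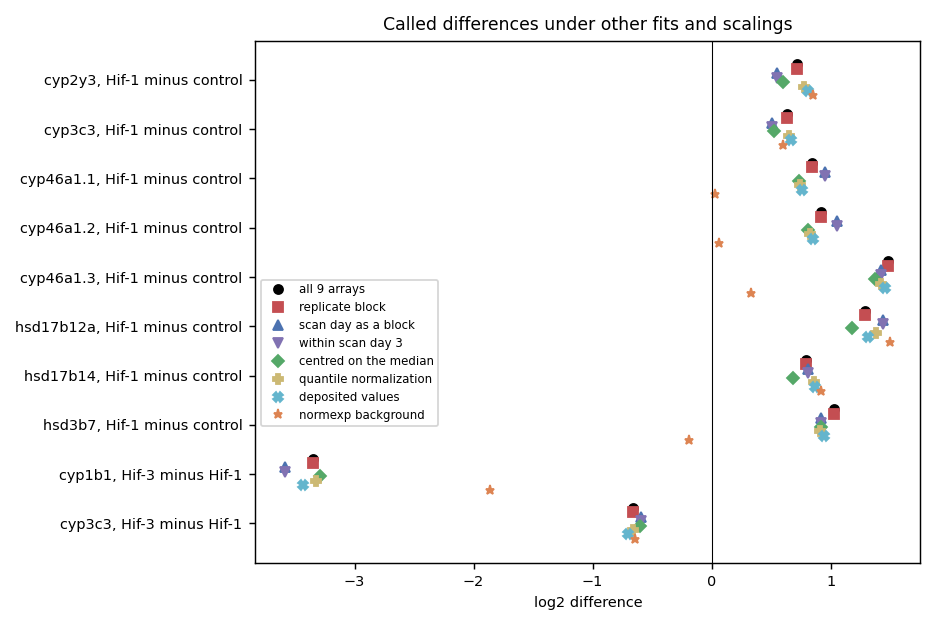
Log2 differences of the 10 calls under the fit of all 9 arrays and 7 other fits or scalings, without error bars. Scan day and scaling left every value on its side of 0. For scan day this was fixed in advance, since the compared groups do not overlap in any of the 10 calls. The replicate block cannot move a difference here, since every group has an array of each replicate number. Normexp background correction, with an added offset of 50, moved hsd3b7 to -0.19 and brought cyp46a1.1 and cyp46a1.2 to near 0.

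Because RNA of whole embryos was measured, fewer cells of a type and less RNA per cell cannot be told apart. Markers of tissues formed by 12 h were well above background on all 9 arrays, apart from 1 of the 3 endoderm markers. Of the 3 yolk layer markers 2 rose with Hif-1α, hnf4a by 2.30 and mxtx1 by 2.09. Their summed signal (log2) ran from 2.05 to 3.91 in controls, 3.86 to 4.74 with Hif-1α and 2.17 to 4.23 with Hif-3α. The sum of 3 epidermal markers was 8.48 to 8.61 in controls and 8.95 to 9.1 with Hif-1α, and that of 2 hatching gland markers 7.83 to 7.92 and 8.18 to 8.5. The endoderm sum was 2.38 to 2.76 and 2.88 to 3.31, and the sum of 6 neural markers 6.25 to 6.31 and 6.14 to 6.19. These sums follow their brightest genes, and single markers of the epidermal, hatching gland and neural lists differed in sign. All 3 endoderm markers were higher with Hif-1α without passing. The differences were 3.02 ± 0.97 for sox32, 1.78 ± 0.78 for sox17 and 0.30 ± 0.14 for foxa2. In controls sox17 was well above background on 1 of 3 arrays. Of the epidermal markers krt8 rose by 0.57, krt4 differed by 0.41 and tp63 by -0.06. Of the hatching gland markers ctslb differed by 0.44 and he1.1 by -0.28, and of the neural markers otx2b differed by 0.41 and the other 5 by -0.30 to -0.14. The paraxial mesoderm marker mespba fell, and differences of that list ran from -1.04 (myod1, not passing) to 0.09. The sums of that list and of notochord overlapped or touched. Markers of later organs were mixed. The liver gene fabp10a was above background on 1 array, and star of the interrenal and gsdf of the gonad on 0, whereas fgb, nr5a1a and foxl2a of the same organs were above it on all 9. The gonad marker amh was above it on 7 arrays and read 4.5 on control replicate 3 against -5.86 to -4.49 on the others. The part of these tissues in the members' differences was not tested.

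Retinoic acid clearance had 3 members, all tested. The principal one, cyp26a1, read 3.56, 3.84 and 3.09 in controls, 4.63, 4.25 and 4.39 with Hif-1α and 4.55, 3.69 and 3.71 with Hif-3α. The Hif-1α arrays were above the controls without overlap, and the Hif-3α arrays overlapped both groups. The difference with Hif-1α was 0.93 ± 0.28, 1.90-fold, with an interval of 0.30 to 1.56, and it missed the threshold (adjusted p = 0.0712). Its other probe gave 1.09 ± 0.28 and passed over all probes (adjusted p = 0.0479), as did the brightest probe under the experiment block.

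The paralogues gave different values. For cyp26b1 the readings were 1.41, 1.13 and 1.1 in controls, 1.08, 1.14 and 1.18 with Hif-1α and 1.62, 1.5 and 1.41 with Hif-3α. It differed by -0.08 ± 0.13 with Hif-1α (interval -0.37 to 0.20) and by 0.30 ± 0.13 with Hif-3α (adjusted p = 0.819), and it was the 1 member whose Hif-3α arrays all lay above the Hif-1α arrays. For cyp26c1 the Hif-1α difference was 0.02 ± 0.15 (interval -0.32 to 0.35) and the Hif-3α difference 0.04 ± 0.15. Among 18 tested retinoic acid genes outside the set, 1 rose with Hif-1α and 0 fell, near the 5.73% and 3.77% of all genes. Their median was -0.01. Under the experiment block 2 rose and 1 fell, where 22.5% of all genes passed in either direction. The gene that rose without the block was rxrba, a retinoid X receptor, at 1.09 ± 0.19 (adjusted p = 0.0173). The gene aldh1a2, which makes retinoic acid, differed by -0.20 (adjusted p = 0.46).

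Of the vitamin A and D enzymes, cyp27c1 desaturates retinol in zebrafish. It read 0.52, 1.27 and 0.71 in controls and 1.56, 1.63 and 1.36 with Hif-1α, without overlap, a difference of 0.68 ± 0.20 that missed the threshold (adjusted p = 0.0646). The vitamin D inactivating enzyme cyp24a1 differed by 0.38 ± 0.40 with Hif-1α and -0.21 ± 0.40 with Hif-3α. The vitamin D activating genes cyp27b1 and cyp2r1 had no matched probe.

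Steroid hormone synthesis had 8 tested members. With Hif-1α 0 of them passed, where 9.50% of all genes did, and with Hif-3α 0 passed, where 0.00512% did. With the experiment as a block 1 rose with Hif-1α, where 22.5% of all genes passed in either direction. The side-chain cleavage gene cyp11a1.1 read 3.24, 4.54 and 3.51 in controls, 3.85, 4.77 and 4.43 with Hif-1α and 3.48, 4.53 and 3.91 with Hif-3α. Within each replicate number the Hif-1α array was the highest, but across replicate numbers the groups overlapped. The difference was 0.58 ± 0.40 with Hif-1α (interval -0.34 to 1.51; adjusted p = 0.376), and with the experiment as a block it passed (adjusted p = 0.0321). The gene cyp17a1, which makes androgen precursors, differed by 0.14 ± 0.41 with Hif-1α and -0.02 ± 0.41 with Hif-3α.

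For hsd3b2, a 3-beta-dehydrogenase, the readings were -2.63, -2.26 and -3.28 in controls, -1.94, -2.05 and -2.23 with Hif-1α and -3.09, -1.61 and -3.06 with Hif-3α. The Hif-1α arrays did not overlap the controls, and the Hif-3α arrays were spread across both. The Hif-1α difference of 0.65 ± 0.41 did not pass (adjusted p = 0.333). The cortisol-inactivating hsd11b2 differed by -0.09 ± 0.26, with an interval of -0.68 to 0.49. The genes hsd17b3, hsd17b1 and hsd11b1la did not pass either. Aromatase genes cyp19a1a and cyp19a1b were well above background on 0 arrays by their brightest probes, and hsd3b1 and hsd20b2 had no matched probe.

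Sterol synthesis gave 2 members and no call. The lanosterol demethylase cyp51 differed by 0.20 ± 0.17 with Hif-1α (interval -0.19 to 0.60) and by 0.12 ± 0.17 with Hif-3α. The reductase hsd17b7 differed by 0.14 ± 0.17 and 0.15 ± 0.17. Of all genes 9.50% passed with Hif-1α, 0.00512% with Hif-3α and 0.926% between the 2 factors. Among 17 tested genes of cholesterol synthesis and its control outside the set, 0 passed in each comparison, with a Hif-1α median of -0.09. With the experiment as a block 2 were lower with Hif-1α, where 22.5% of all genes passed in either direction. The 2 family 4 genes and cyp20a1, a P450 of unknown substrate, did not pass with either factor.

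Partners of the P450 enzymes were examined as a list of 24 genes of electron transfer, haem synthesis and steroid supply, of which 19 were tested. With Hif-1α 4 of the 19 rose and 2 fell, beside 5.73% and 3.77% of all genes. Under the experiment block 7 rose and 4 fell, where 22.5% of all genes passed, 2280 higher and 2123 lower. The haem synthesis gene cpox read 1.5, 2.45 and 2.28 in controls, 4.38, 4.32 and 4.26 with Hif-1α and 2.13, 2.51 and 2.51 with Hif-3α, a rise of 2.24 ± 0.24 with Hif-1α (adjusted p = 0.00371). The Hif-1α arrays were close together and stood far above the arrays of both other groups. The ferredoxin gene fdx1b, which in zebrafish passes electrons to the mitochondrial steroid-making P450s, was 1.61 ± 0.19 higher (adjusted p = 0.00444) and was above background on 1 of 3 control arrays, so the difference rests in part on control readings not well above background. Haem-degrading hmox1b rose by 1.13 ± 0.20 (adjusted p = 0.0178), and the cytochrome b5 reductase gene cyb5r3 fell by 0.65 on the log2 scale (adjusted p = 0.0353). The remaining calls without the block were stard3 (higher) and the haem synthesis gene alad (lower). With Hif-3α 0 of the 19 passed, where 0.00512% of all genes did.

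Against controls, the Hif-3α embryos gave 0 calls among the 59 members, and limma's unadjusted p was under 0.05 for 4 of them, 6.78% against 6.09% of all genes tested. The median difference was 0.12 against 0.02 over all genes. Under the experiment block the count was also 0, with 0.00512% of all genes passing. The 5 smallest p-values, none passing, belonged to cyp1b1, hsd3b7, cyp2y3, cyp26b1 and hsd17b12a. Hif-3α arrays did not overlap the controls in 8 of 59 members, 13.6% against 11.2% of all genes, 5 of them above and 3 below. The members above were cyp1d1, cyp26b1, cyp2y3, hsd17b14 and hsd3b7, and those below were cyp1b1, cyp20a1 and cyp2p6; the lists were read from the values.

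The widest contrast between the factors was in family 1, which includes P450s induced through the aryl hydrocarbon receptor. In mammals CYP1B1 oxidises oestrogens and retinoids. The brightest of 3 cyp1b1 probes read -2.28, -0.53 and -2.14 in controls, -0.20, -0.31 and -0.31 with Hif-1α and -3.10, -4.78 and -2.99 with Hif-3α. The Hif-1α arrays were tight and on top, the Hif-3α arrays were at the bottom, and the controls lay between with 1 array, replicate 2, close to the Hif-1α level. The Hif-3α level was 3.35 log2 units below that with Hif-1α (-3.35 ± 0.56, 10.2-fold lower, adjusted p = 0.0411).

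Neither factor alone moved cyp1b1 past the threshold against controls. The Hif-1α difference was 1.37 ± 0.56 (interval 0.09 to 2.66; adjusted p = 0.153) and the Hif-3α difference -1.98 ± 0.56 (interval -3.26 to -0.69; adjusted p = 0.552). The other cyp1b1 probes were well above background on 1 of 3 control arrays, 3 of 3 Hif-1α arrays and 0 of 3 Hif-3α arrays. By probe A_15_P631471 the Hif-1α level was at least 2.7-fold above that with Hif-3α (adjusted p = 0.0126 over all probes, of which 0.964% passed), and by probe A_15_P131961 at least 2.2-fold (adjusted p = 0.0692). These bounds use the lowest signal that was well above background in place of the dim group. Both probes were kept only through the Hif-1α group, where they are high, so they are no separate support for the contrast. Within scan day 3 the brightest probe differed by -3.58 ± 0.99 (adjusted p = 0.674), and normexp gave -1.86 ± 0.61 (adjusted p = 0.922).

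**Figure D4:**
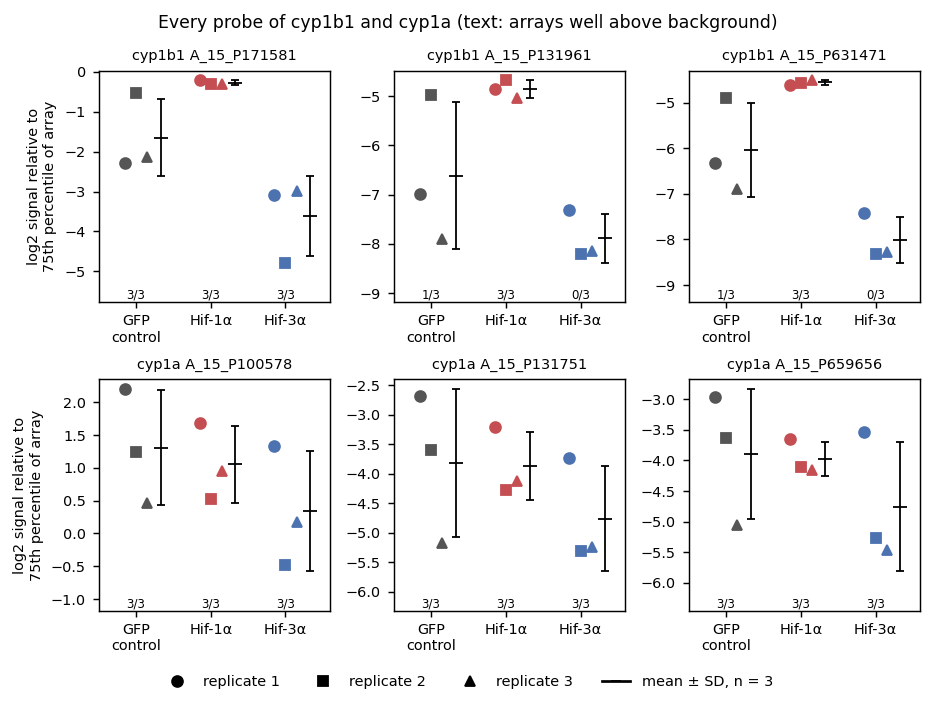
Levels (log2 signal relative to the 75th percentile of the array) of all 3 probes of cyp1b1 (top) and cyp1a (bottom), by array, with the mean ± SD of 3 arrays and, above each group name, how many arrays were well above background. In 2 of the 3 cyp1b1 probes all Hif-1α arrays lie on top and all Hif-3α arrays at the bottom; in A_15_P131961 control arrays overlap both groups, and every cyp1a probe has replicate 1 highest in each group.

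The other tested family 1 genes did not pass between the 2 factors. Hif-3α minus Hif-1α was -0.72 ± 0.56 for cyp1a, with an interval of -2.01 to 0.57. It was 0.66 ± 0.32 for cyp1c1 and -0.06 ± 0.14 for cyp1d1. The gene cyp1a, the usual marker of aryl hydrocarbon exposure, read 2.21, 1.24 and 0.46 in controls, 1.69, 0.53 and 0.95 with Hif-1α and 1.33, -0.48 and 0.17 with Hif-3α. The groups overlapped, and the differences were -0.25 ± 0.56 with Hif-1α (interval -1.54 to 1.04) and -0.97 ± 0.56 with Hif-3α (interval -2.25 to 0.32; adjusted p = 0.859). The gene cyp1c1 differed by -0.42 ± 0.32 and 0.24 ± 0.32, and cyp1d1 by 0.18 ± 0.14 and 0.12 ± 0.14. The neighbour of cyp1c1, cyp1c2, reached 2 of 3 arrays in each group and was not tested. Over all genes 9.50% passed with Hif-1α, 0.00512% with Hif-3α and 0.926% between the 2 factors. Of 7 tested genes of the aryl hydrocarbon receptor list outside the set, 0 passed in each comparison. With the experiment as a block 2 were higher with Hif-1α, where 22.5% of all genes passed in either direction. The receptor ahr2 differed by 0.07 with Hif-1α and 0.06 with Hif-3α, and its repressor ahrra by -0.25 and 0.80, all ± 0.57 or less.

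Set directly against Hif-1α, the Hif-3α embryos had 2 of 59 members lower and 0 higher, where 0.926% of all genes passed and 0.737% were lower. Beside cyp1b1 the second was cyp3c3, at -0.66 ± 0.11 (1.58-fold lower, adjusted p = 0.0416). Its other probes gave -0.52 ± 0.21 and -0.31 ± 0.24, which did not pass over all probes (adjusted p = 0.243 and 0.522). Within scan day 3 the brightest cyp3c3 probe differed by -0.59. The next smallest p-values did not pass: hsd17b14 at -0.54 (adjusted p = 0.110), cyp46a1.3 at -1.04 (0.127), and cyp46a1.1 at -0.65 and cyp46a1.2 at -0.76 (both 0.134). With the injection experiment as a block 8 members were lower, against 2.65% of all genes lower, and cyp3c1, hsd17b12a, hsd17b14 and the 3 cyp46a1 copies joined, with adjusted p from 0.0333 to 0.0497. Without the block both calls depended on nearly every array: 2 members passed without control replicate 2, and 0 when any of the other 8 arrays was left out. Of all genes 1.44% passed without control replicate 2, and 0.286% to 0.849% in the other 8 fits.

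Hif-3α arrays lay wholly below the Hif-1α arrays in 11 of 59 members, 18.6% against 11.2% of all genes, and wholly above in 1, 1.69% against 15.3%. The median difference was -0.16, against 0.03 over all genes, and normexp turned the members' median to 0.06 while it moved that of all genes to 0.21. Among the 19 partners of the P450s 3 were lower with Hif-3α than with Hif-1α, where 0.737% of all genes were: cpox by -1.94 (adjusted p = 0.0112), fdx1b by -1.26 (adjusted p = 0.0266) and nr5a1b by -1.22 (adjusted p = 0.0462), a nuclear receptor gene related to the steroidogenic factor.

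Some members kept the same order of replicates in all groups. In 23 of 59 the same replicate number was highest in all 3 groups, against 31.5% of all genes, and in 23 of 59 the same number was lowest, against 31.0%. Replicate 1 was highest in every group for cyp1a, and all 3 probes of that gene showed it. Replicate 2 was highest and replicate 1 lowest for cyp11a1.1. For cyp17a1 replicate 3 was highest and replicate 1 lowest, at -1.43 to -0.14 in controls. The 3 replicate 1 arrays were also lowest for cyp24a1. These genes were named for the pattern after their values were seen, and the differences between experiments were not tested. The replicate 1 arrays were scanned on days 1, 2 and 4 and none on day 3. In the control and Hif-3α groups, experiment and scan day therefore cannot be told apart for replicate 1. Hif-1α replicates 1 and 3 shared scan day 4 and a slide. These 2 arrays read 1.69 and 0.95 for cyp1a and 3.85 and 4.43 for cyp11a1.1. They read -1.18 and -0.14 for cyp17a1 and 0.06 and 1.23 for cyp24a1.

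**Figure D5:**
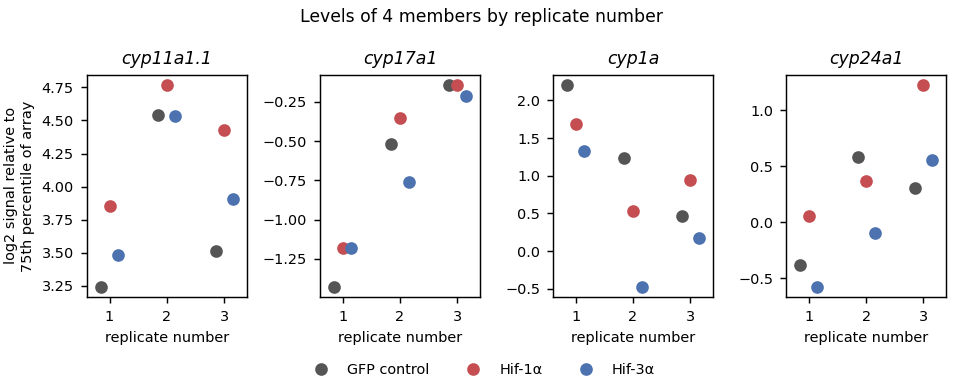
Levels (log2 signal relative to the 75th percentile of the array) of cyp11a1.1, cyp17a1, cyp1a and cyp24a1 by replicate number, with 1 point per array and colours for the groups, set side by side at each number. In cyp11a1.1 the 3 arrays of replicate 2 lie on top in their groups, and in cyp1a those of replicate 1.

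The other members are accounted for as follows. The 5 members with the strongest probe signal in controls, which reflects the probe as well as the transcript and gives no order of transcript levels, were hsd17b12a, cyp2aa9, cyp11a1.1, cyp2aa8 and cyp26a1, at control means of 3.49 to 4.02. Of the 20 members with a probe that were not tested, 12 had their brightest probe above background on 0 of 9 arrays and 8 on 1 to 6 arrays. A further 25 symbols had no matched probe. Several genes had neighbours of the same family, among them 11 family 2 genes from cyp2n13 to cyp2j20 in 1 run of the reference gene order, of which 8 were tested. Signals of such close copies may be shared between probes, which could not be checked without probe sequences.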

How the data were processed

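RNA of 9 pools of 60 embryos was labelled with Cy3 and hybridised to 1-colour Agilent arrays. Per the file headers these carry the zebrafish grid design 026437 and were read with Feature Extraction 10.7.3.1; the labelling text names a mouse array instead. The deposited processed signal and the deposited median spot and local background signals are intensity values, and per the file headers the first is background-subtracted and detrended but not scaled between arrays. The deposited flags are other values, 0 or 1. The authors' deposited value table is in log2 units, and per the series' design text it was normalized with GeneSpring 11.0. Each column correlated at 0.999 or above with its scanner values and had a median of about 6.085, so arrays were aligned, while any offset stays unknown.

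Probes were named through their RefSeq accession, without version, in a gene table of assembly GRCz12tu, used for names and gene order alone. Of 43603 probes 25069 matched, to 12858 symbols. Members were the symbols that begin with cyp or hsd and a number, and they had 164 probes, of which 108 were kept. Spots of a probe were averaged without control spots and spots marked as outliers; saturated spots numbered 0. Probes entered the tests if some group had all 3 of its arrays well above background (31116 probes), and the brightest stood for its gene. The log2 processed signal minus the array's 75th percentile went into limma 3.58.1 (R 4.3.3) over all 9 arrays, 1 mean per group, two-sided, with Benjamini-Hochberg adjustment over 19549 genes or transcripts and a threshold of 0.05. The median SE was 0.19 over all genes and 0.22 over members. The number of arrays limits the precision. The fit was tested on simulated data.

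Groups and replicate numbers came from the sample labels, and the design text gives 3 independent injection experiments. Deviations of same-numbered arrays from their group means correlated at 0.11 to 0.58 in all 9 pairs, so the numbers were taken to pair the arrays. Scan day and slide came from the file headers. The alternatives were normexp correction with an offset of 50, quantile and median scaling, and no filter or a stricter one on dim probes. Others were the deposited table, the mean of a gene's probes, and blocks for replicate and scan day. Values within scan day 3, only the compared groups, and each array left out completed the list. Slide as a random block, and the median in place of a mean spot signal for normexp, which the files do not give, were chosen after seeing the data.

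Named were all members that passed, the 5 smallest p-values where fewer than 5 did, a written list of known enzymes, the 5 brightest members in controls, and up to 4 passing genes of each pathway list by p, with exceptions said in place. Members, role groups and lists were chosen with earlier results of these data known, and no list was given a test. No sequences are shown, since none were used here.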

Additional observations from a re-analysis of the deposited data

Results flagged for a closer look

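In 2 members the effects of the 2 injected mRNAs differed by the test of the difference itself (limma, adjusted over all genes tested). For cyp1b1 the Hif-3α level was -3.35 log2 units from the Hif-1α level, with 1.37 for Hif-1α and -1.98 for Hif-3α against the shared controls, neither of which passed (adjusted p of the difference 0.0411). For cyp3c3 the difference was -0.66 (adjusted p = 0.0416), with 0.63 for Hif-1α, which passed, and -0.03 for Hif-3α. These are values of its brightest probe, and its other probes passed in no comparison over all probes. Scan day and group are partly confounded in both members. Within scan day 3, and with scan day as a block, the differences were -3.58 for cyp1b1 and -0.59 for cyp3c3. Their sign was fixed in advance, since in both members all Hif-3α arrays lay below all Hif-1α arrays. With scan day as a block neither passed, where 0 of all genes passed. The part of scan day was not tested further.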

How the results depend on the processing

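The direct comparison is Hif-3α against Hif-1α, and lists of 3 values give Hif-1α and Hif-3α against control and then the direct comparison. Before any alternative, 8 members were higher with Hif-1α and 2 were lower with Hif-3α than with Hif-1α, and the medians over members were 0.19, 0.12 and -0.16. Normexp background correction gave 0 higher and 0 lower, with medians of 0.01, 0.05 and 0.06, and turned hsd3b7 to -0.19; the median of all genes with Hif-1α was then -0.20, so members stood 0.21 above it. Centring on the array median moved that of all genes to -0.12 and gave member medians of 0.08 and -0.10 for the comparisons with Hif-1α, again 0.20 above all genes and 0.19 below them. With no filter on dim probes 5 were higher with Hif-1α and 0 lower in the direct comparison, and the Hif-3α median was 0.04. The mean of a gene's probes gave 1 member lower with Hif-1α (hsd17b4), a median of 0.27, and 1 lower in the direct comparison. The replicate block gave 12 higher and 1 lower with Hif-1α and 8 lower in the direct comparison, and it ended none of the 10 calls. Scan day as a block, and values within scan day 3, gave the same differences, and each gave 0 higher and 0 lower, with medians of 0.13 and 0.04 for Hif-1α and Hif-3α against control. Fitting only the compared groups left 4 higher and 1 lower. Leaving out 1 array at a time gave 0 to 9 members higher with Hif-1α, medians of 0.12 to 0.23, and 0 to 2 lower in the direct comparison. Counts over all genes moved as well: for Hif-1α, from 1120 higher and 737 lower to 5 and 0 with normexp, 529 and 176 with no filter, 2280 and 2123 with the replicate block, 4 and 0 with scan day as a block, 0 and 0 within scan day 3, 544 and 151 with only the compared groups, and 291 to 1196 and 83 to 863 with 1 array left out. In the direct comparison 37 and 144 became 0 and 6 with normexp, 5 and 76 with no filter, 371 and 518 with the block, 0 and 0 with scan day in either form, and 2 to 83 and 54 to 198 with 1 array left out. With Hif-3α against control 1 gene was higher, against 0 to 13 higher and 0 to 5 lower with 1 array left out and 6 higher with the mean of probes. The causes were not tested, except that within scan day 3 and with arrays left out fewer arrays enter the fit. With Hif-3α against control 0 members passed under each of the 21 alternatives run. Of these 21, each Hif-1α call passed in 5 (cyp46a1.2) to 15 (hsd17b14 and hsd3b7), and in the direct comparison cyp1b1 passed in 9 and cyp3c3 in 7. Signal over background limits the set: 20 members were too dim to test.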
